A study of Mus musculus with 12 samples.

Results

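H3K27me3 islands of embryonic and adult small-intestinal epithelium of the mouse were compared, 4 libraries against 4. The members are the 8 ChIP libraries of a series of 12 samples, of which the other 4 are input libraries. The embryonic kind holds 2 libraries of epithelium of the embryonic day E12.5 and 2 of the day E14.5, and the adult kind holds 2 of Lgr5-EGFP-high intestinal stem cells (ISC) and 2 of enterocytes (AE). The series title names chromatin states as adult intestinal stem cells are specified and differentiate, and its design text calls the libraries of each population biological duplicates. All mice were of a mixed C57BL/6 and CD1 background. The adult cells came from Lgr5EGFP-Cre-ERT males at postnatal day 60, in which the Lgr5 locus drives EGFP and an inducible Cre. No Cre-dependent deletion or treatment is named in the labels, and the labels as used here give no sex for the embryos. Cells were sorted as EpCAM-positive and negative for CD31, CD45 and DAPI, so kind differs together with age, mouse line and tissue preparation, and these cannot be told apart. The lists hold no gene names, so neither the cell types nor the position of a region relative to genes was checked.

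H3K27me3 is trimethylation of lysine 27 of histone H3, placed by the EZH2 or EZH1 subunit of Polycomb repressive complex PRC2 and read by PRC1 complexes. The mark lies in broad domains over genes kept silent, among them regulators of other lineages, and it is diluted at each cell division unless it is written again. In the intestine the embryonic epithelium is a dividing tube that has yet to form mature crypts, while in the adult the stem cells divide at the crypt base and enterocytes are non-dividing absorptive cells of the villus.

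Each library is a list of islands, stretches in which ChIP reads exceeded control reads by the SICER caller. The 4 embryonic lists covered between 62.2 Mb (E12.5 replicate 1) and 105.8 Mb (E14.5 replicate 2) of the 19 autosomes. The adult lists covered between 60.4 Mb (ISC replicate 2) and 240.9 Mb (ISC replicate 1). ISC replicate 1 thus stood apart, with 42.8% of its length in no other list. In E12.5 replicate 1, whose list was the second shortest, the share was 39.1%, against 11.1% to 22.7% in the remaining 6. ChIP reads inside islands ran from 1145326 to 6617869 a list. A window outside a list's islands is a window without a call, and the mark may still be present there at a lower level. Because the lists differ in extent, each length is also given after every list was reduced to the 60.4 Mb of its islands with the highest ratio of ChIP to control reads ("equal length").

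Most called length was private to a library, and most of the length called in all lists of a kind was also called in 3 or 4 lists of the other kind. In any list, 367.3 Mb were called, and 54.8% of this length lay in 1 list. Length with as many embryonic as adult lists was 12.6% of the total, and 11.0 Mb were called in all 8 lists. Of the length in 4 embryonic lists, 59.9% was in 4 adult lists, 74.4% in 3 or 4, and 7.63% in none. Of the length in 4 adult lists, 42.7% was in 4 embryonic lists, 62.6% in 3 or 4, and 17.3% in none. At equal length the shares with none became 12.2% and 16.6%.

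The full table of windows by embryonic and adult lists had 24 filled cells. With no embryonic list, 134.5 Mb were in 1 adult list, 33.2 Mb in 2, 11.5 Mb in 3 and 4.45 Mb in 4. With 1 embryonic list, 66.8 Mb were in no adult list, 25.5 Mb in 1, 10.6 Mb in 2, 4.82 Mb in 3 and 2.26 Mb in 4. Those rows held the bulk of the called length and thinned out towards more adult lists. With 2 embryonic lists the lengths over 0 to 4 adult lists were 10.9, 9.33, 5.73, 4.27 and 2.92 Mb. With 3 embryonic lists the profile was flat, at 4.21, 4.65, 4.03, 4.202 and 5.13 Mb. With 4 embryonic lists it rose, from 1.402 Mb over 1.51, 1.79 and 2.66 Mb to 11.0 Mb. The diagonal cell of all 8 lists was therefore the longest of its row and of its column among windows in 4 lists of a kind.

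**Figure D1:**
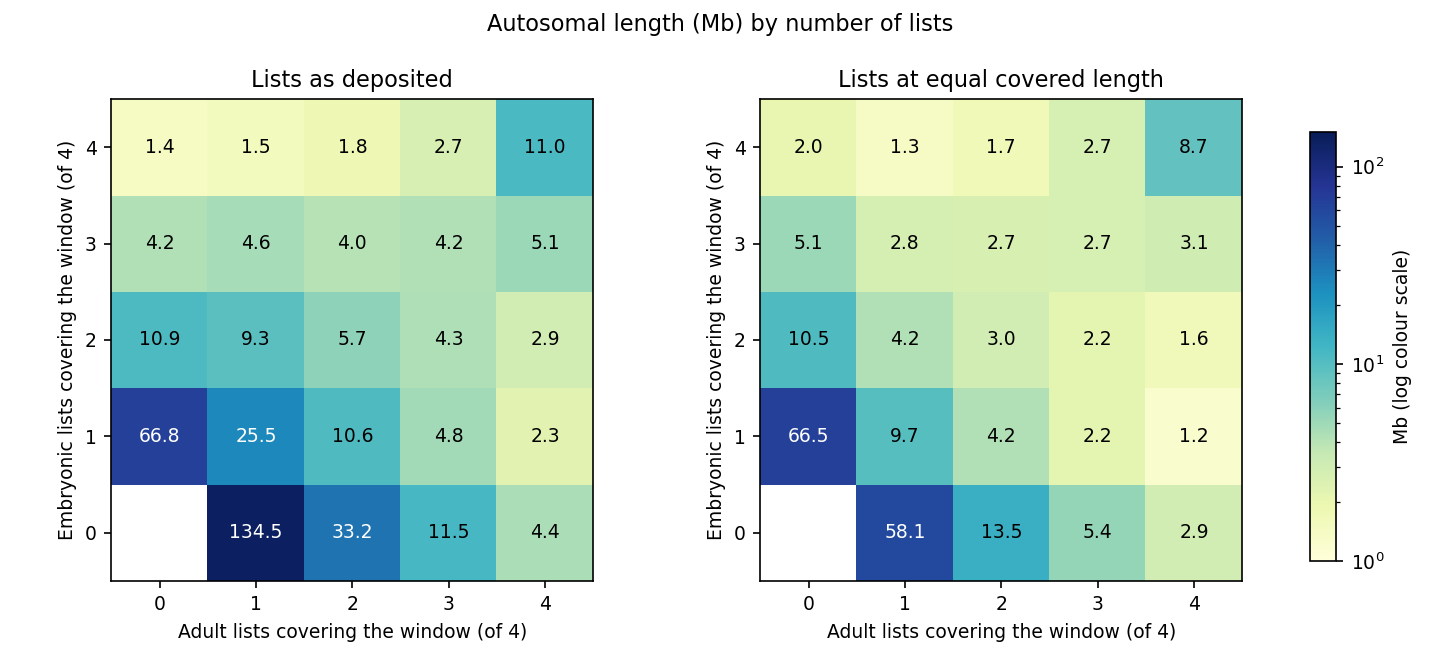
Autosomal length in Mb (colour, log scale, and printed) of 200 bp windows by the number of adult lists (x axis, 0 to 4) and embryonic lists (y axis, 0 to 4) covering them, for the lists as deposited (left) and at equal length (right). The cell of 4 and 4 lists held 11.0 Mb as deposited and 8.68 Mb at equal length, more than any other cell of its row or column in both panels.

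Set against its mirror cell, each of the 10 pairs of unequal cells was longer on the adult side as deposited. More adult than embryonic lists covered 213.7 Mb, and more embryonic than adult lists covered 107.3 Mb. At equal length 4 of the 10 pairs were longer on the adult side, and the lengths were 94.4 Mb with more adult and 99.6 Mb with more embryonic lists. Of the length in exactly 1 adult and no embryonic list, 76.6% belonged to ISC replicate 1 as deposited and 17.3% at equal length. By the difference in number of lists, adult excesses of 2, 3 and 4 lists covered 17.3, 6.61 and 2.896 Mb at equal length, and embryonic excesses of the same size covered 15.03, 6.47 and 2.01 Mb.

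The adult class was longer than the embryonic class by the strict and by the graded rule, and the gap narrowed at equal length. By the strict rule, 4 lists against 0, 1.402 Mb in 429 stretches was embryonic (0.382% of called windows) and 4.45 Mb in 1288 stretches was adult (1.21%). By the graded rule, 3 or 4 lists against 0 or 1, 11.8 Mb in 3535 stretches was embryonic (3.2% of called windows) and 23.1 Mb in 5687 stretches was adult (6.28%). At equal length the graded classes were nearly level, at 11.3 Mb embryonic and 11.7 Mb adult, while the strict classes were 2.01 and 2.896 Mb. The rules in between gave 2.91 Mb embryonic (0.792%) and 6.71 Mb adult (1.83%) for 4 against 0 or 1, and 5.61 Mb (1.53%) and 16.0 Mb (4.35%) for 3 or 4 against 0. Their lengths at equal length were 3.36 and 4.104 Mb, then 7.14 and 8.2996 Mb.

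The graded stretches were short. Their median length was 2.4 kb on the embryonic side and 2.8 kb on the adult side, with the longest at 69.6 and 94.2 kb. Stretches of 10 kb or more held 19.5% of the embryonic and 27.8% of the adult length. The length of either side depended on single libraries, partly by construction, since with 3 lists left the rule asks for 2 of them on the reduced side. The graded embryonic length was 27.4 Mb without E12.5 replicate 1, 23.9 Mb without E12.5 replicate 2 and 20.5 Mb without E14.5 replicate 1. On the adult side, 56.7 Mb were found without ISC replicate 2, 51.4 Mb without AE replicate 1 and 45.3 Mb without AE replicate 2. Without both libraries that stood apart, E12.5 replicate 1 and ISC replicate 1, the embryonic length of 37.3 Mb exceeded the adult length of 27.4 Mb. The strict embryonic length was 4.54 Mb without E12.5 replicate 1 and 2.57 Mb without ISC replicate 1, and the strict adult length was 11.2 Mb without ISC replicate 2, 6.74 Mb without AE replicate 1 and 6.76 Mb without AE replicate 2.

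The libraries did not enter the classes evenly. Of the length in exactly 3 embryonic and no adult list, E12.5 replicate 1 was the missing list in 74.5%, E14.5 replicate 1 in 12.7%, E12.5 replicate 2 in 10.4% and E14.5 replicate 2 in 2.44%. The share of E12.5 replicate 1 was 73.4% at equal length, which shortened its own list only from 62.2 to 60.4 Mb. Of the length in exactly 3 adult and no embryonic list, ISC replicate 2 was missing in 58.9% and ISC replicate 1 in 1.28%. At equal length the shares were more even, at 36.01% for ISC replicate 2, 23.5% for AE replicate 2, 21.3% for ISC replicate 1 and 19.3% for AE replicate 1. Where all 4 embryonic lists met a single adult list, that list was ISC replicate 1 in 77.2% of the length (29.6% at equal length, with 40.3% in ISC replicate 2). Where all 4 adult lists met a single embryonic list, it was E14.5 replicate 2 in 58.2% (39.0% at equal length). Among windows in exactly 2 embryonic and no adult list, 45.2% was in both E14.5 lists and 13.6% in both E12.5 lists, and the rest joined the ages.

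Libraries of a kind resembled each other across populations more than they resembled the other kind once the lists were of equal length. The share of a list's length also covered in the other population of its kind, averaged over the libraries there, exceeded the share covered in the other kind in 8 of 8 lists at equal length, by 9.31 ± 5.73 percentage points (SD, n = 8). These 8 values are not independent, since at equal length each overlap between lists enters the shares of both. The excess was not tested. The smallest excesses were those of E14.5 replicate 2, 1.89 points, and E14.5 replicate 1, 2.45 points. As deposited the excess held in 6 of 8 lists, and the E14.5 lists went the other way, by -6.82 and -8.45 points. Each E14.5 list then shared 47.8% and 42.0% of its length with adult lists on average and 40.9% and 33.5% with the E12.5 lists.

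Both kinds of class stretch lay partly at the edges of length that the other kind also called. Of the 4 against 0 stretches, 56.6% of the embryonic and 54.9% of the adult ones had an island of the other kind within 5 kb. A further group stood alone, with no island of the other kind within 20 kb, namely 31.7% of the embryonic stretches holding 46.6% of their length and 28.0% of the adult stretches holding 37.2%. The same shares were not computed for other called length, so neither is shown to be particular to these stretches. The stretches near the other kind were shorter, with medians of 1.2 kb embryonic and 1.6 kb adult, against 4 kb and 3.8 kb for those that stood alone. Around stretches of 5 kb or more, lists of the own kind thinned out gradually with distance from the edge. For the 94 embryonic stretches of this size, the mean number of embryonic lists was 2.38 at 1 kb outside the edge, 1.28 at 10 kb and 0.659574 at 50 kb. For the 307 adult stretches, the mean number of adult lists was 2.57 at 1 kb, 1.78 at 10 kb and 0.929967 at 50 kb. The other kind stayed between 0.0957 and 0.346 lists around embryonic stretches and between 0.125 and 0.326 lists around adult ones at these and the distances of 5, 20, 30 and 40 kb.

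Where graded stretches less than 2 kb apart were joined, 3206 embryonic and 4913 adult domains resulted, 178 and 516 of them with 10 kb or more of class length. The longest embryonic domain, chr8:112518001-112602200, held 82.6 kb of class length. It was covered to 73.2% and 95.0% by the E12.5 lists and to 95.7% and 100% by the E14.5 lists. In the adult lists it was covered to 10.2% in ISC replicate 1 and to 0% in the others. Low cover by the other kind is largely set by the rule, since class windows have 0 or 1 of its lists. This holds for each domain named here. Over it, the longest island of each embryonic list had 418 ChIP and 502 control reads at E12.5 replicate 1, 1768 and 1093 at E12.5 replicate 2, 1961 and 829 at E14.5 replicate 1, and 2923 and 2071 at E14.5 replicate 2. Divided by the list's median island, the ratios of ChIP to control reads were 1.03, 1.56, 1.63 and 1.49. This relative ratio is used below because the size of the control relative to the ChIP library differs between lists.

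Among the 7 embryonic domains next in length, 2 had no adult island at all. At chr1:122835801-122884400 the embryonic lists covered 72.8% to 97.1%, with relative ratios of 1.26, 1.93, 1.64 and 1.51 in the order of the populations. At chr15:85473001-85512600 they covered 88.4% to 100%, with relative ratios of 1.17, 1.65, 1.63 and 1.86. Both regions were thus called in each embryonic library and above that library's median island. At chr8:87256601-87305400 the embryonic cover was 72.1% to 96.3%, with relative ratios of 1.27 to 2.03, and the adult lists reached 0.41% in ISC replicate 1 and 0% elsewhere. The domain chr2:26370601-26431400 was covered to 32.6% in E12.5 replicate 1 and to 97.4% to 100% in the other embryonic lists, and ISC replicate 1 covered 20.7% of it. The domain chr17:34307201-34352800 had embryonic cover of 78.5% to 97.4% and 18.9% in ISC replicate 1, with relative ratios from 0.812 to 1.205.

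The remaining pair of long embryonic domains differed from these in their control reads. At chr1:85227601-85297200 the embryonic islands carried 2.62 to 2.74 times the median control density of their lists and relative ratios of 0.712 to 0.87, and ISC replicate 2 covered 99.7% of it at 2.945 times. At chr7:46503201-46546600 the control density was 1.53 to 2.47 times the median in the embryonic lists, the relative ratios were 0.713 to 0.818, and AE replicate 1 covered 96.8% with 2.21 times the median. Each of these regions was thus low in ratio, dense in control reads and called almost whole in 1 adult library. The part of control density in these calls was not tested.

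The longest adult domain, chr7:52850601-52952800, held 101 kb of class length. It was covered to 100% and 81.0% by the ISC lists and to 98.6% and 97.7% by the AE lists. Of the embryonic lists, E12.5 replicate 1 covered 16.0%, E14.5 replicate 2 covered 3.33% and the others 0%. The longest adult islands over it had 6239 ChIP and 2727 control reads in ISC replicate 1, 1105 and 1005 in ISC replicate 2, 6215 and 2274 in AE replicate 1, and 2298 and 1276 in AE replicate 2. Their relative ratios were 2.00, 1.06, 1.30 and 1.37, so ISC replicate 2 lay closest to its list's median there.

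**Figure D2:**
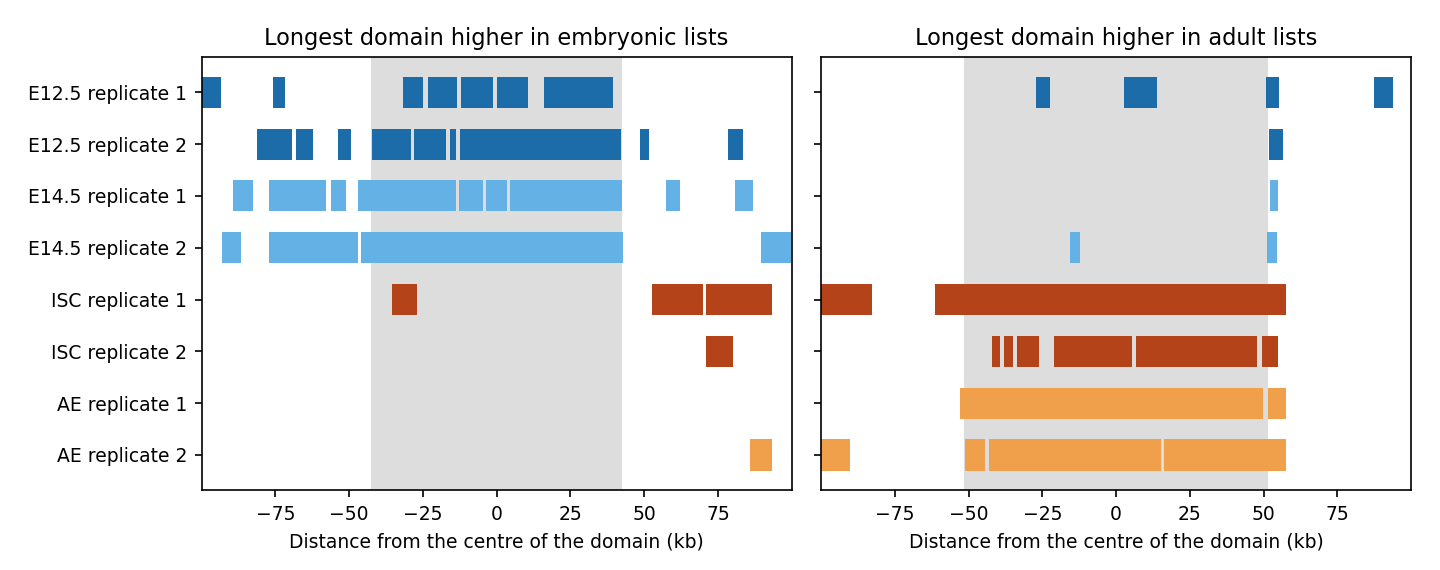
Islands of each list (bars, 1 row a library) around the longest embryonic domain (left) and the longest adult domain (right), by distance in kb from the centre of the domain, with the domain shaded. On the left the embryonic lists covered 73.2% to 100% of the domain and ISC replicate 1 covered 10.2%, and on the right the adult lists covered 81.0% to 100% and E12.5 replicate 1 covered 16.0%.

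The second longest adult domain, chr5:125738801-125841200, held 100 kb of class length, with adult cover of 89.1% to 98.6% and E12.5 cover of 13.1% and 7.03%. No embryonic list had an island over chr15:100591201-100648800, chr9:110621001-110673400 or chr9:114430801-114480000, which the adult lists covered to 56.3% to 100%, 48.9% to 100% and 79.7% to 100%. In the first of these the relative ratios were 1.19 in ISC replicate 1, 0.834 in ISC replicate 2, 0.959 in AE replicate 1 and 0.9998 in AE replicate 2, so the region was called in each adult list but was not high within 3 of them. The other long adult domains were chr17:30034801-30121200, chr4:45052801-45109800 and chr4:140175801-140227400. Embryonic cover there came from E14.5 replicate 2 alone for the first, at 8.33%, and from the E12.5 lists for the others, at 8.14% to 20.5%. ISC replicate 2 was the adult list with the least cover in each of the 8, at 31.4% to 89.1%. The domains with the highest relative ratio were short, 0.4 kb at chr2:135886801-135887200 on the embryonic side and 2.6 kb at chr3:126562001-126564600 on the adult side. An island of the other kind overlapped each.

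Over larger intervals, 260 bins of 500 kb differed between the kinds, in both directions and across the autosomes. Covered kb per bin was scaled to equal totals, and log2(kb + 10) was compared with limma over 2237 bins, with Benjamini-Hochberg adjustment at 0.05. Embryonic cover was higher in 116 bins (5.19% of those tested) and adult cover in 144 (6.44%), while at an unadjusted limma p under 0.05 the counts were 284 (12.7%) and 343 (15.3%). The bins higher in the embryo had median means of 53.0 scaled kb in embryonic and 9.27 in adult lists, and those higher in the adult had 60.3 in adult and 8.69 in embryonic lists. The median difference was 1.58 and -1.70 on the log2 scale. The 4 libraries of each kind did not overlap in 100 of the 116 and 129 of the 144, and over all bins tested this was so in 182 embryonic-higher (8.14%) and 219 adult-higher bins (9.79%). Separation in the called bins was largely set in advance, since the calls rest on the same values. No adult list touched 6 of the embryonic-higher bins, and no embryonic list touched 10 of the adult-higher bins. Pairs of neighbouring called bins were both embryonic-higher in 12 cases, both adult-higher in 16 and of opposite direction in 7. The counts of untouched bins and of neighbouring pairs were not set against all bins tested, so they are not shown to be unusual. Of the longest domains, 8 of 8 embryonic and 7 of 8 adult ones lay at least partly in a bin called in their direction, which reuses the same lists. The exception was chr4:45052801-45109800, and chr15:85473001-85512600 lies across the border of a called bin and a bin that was not called.

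The number of called bins changed with the scaling and with single libraries. Without scaling 11 bins were higher in the embryo and 80 in the adult, so that the embryonic share of calls was 12.1% in place of 44.6%, and the median difference over all bins moved from -0.01 to -0.36 on the log2 scale. At equal length the counts were 114 and 152, of 1637 bins tested in place of 2237. Embryonic-higher bins numbered 181 without E12.5 replicate 1, 54 without E12.5 replicate 2, 68 without E14.5 replicate 1, 50 without E14.5 replicate 2, 65 without ISC replicate 2, 66 without AE replicate 1 and 68 without AE replicate 2. Adult-higher bins numbered 86 without E14.5 replicate 2 and 87 without AE replicate 1. Without E12.5 replicate 1 and ISC replicate 1 together there were 203 and 176, of 1958 tested. In each fit on 500 kb bins, every main call that could be tested kept its sign. This was largely set in advance, since the calls were picked for their difference in the same lists. The fits with a mean for each population and with a replicate block, given below, have the same differences by construction. The limma p-values of the bins hold for libraries, since the replicates are nested in 2 populations a kind. Nothing but the design text says that replicates came from separate animals.

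The bin with the lowest p among the embryonic-higher ones was chr17:67000001-67500000. Its scaled cover was 45.9 and 72.7 kb at E12.5, 32.4 and 53.8 kb at E14.5, and 0 kb in each of the adult lists. The embryonic mean was 51.2 ± 16.8 kb (SD, n = 4), and the log2 difference was 2.57 ± 0.32 (SE, limma adjusted p = 0.000947). At chr10:127000001-127500000 the cover was 45.3 and 64.5 kb at E12.5, 26.5 and 48.2 kb at E14.5, and again 0 kb in the adult lists, a log2 difference of 2.44 ± 0.32 (SE, limma adjusted p = 0.00109). In both bins E14.5 replicate 1 was the lowest embryonic library.

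At chr4:148000001-148500000 the embryonic lists were close together in scaled cover, at 66.8 and 59.3 kb for E12.5 and 64.8 and 56.2 kb for E14.5. The adult lists there had 7.52 and 8.15 kb in ISC and 0 and 5.87 kb in AE, a log2 difference of 2.26 ± 0.32 (SE, limma adjusted p = 0.00175). The bin chr2:26000001-26500000, which holds the third longest embryonic domain, had 168.9 and 209.9 kb at E12.5, 125.9 and 142.8 kb at E14.5, 39.5 and 23.5 kb in ISC and 22.8 and 17.4 kb in AE. Adult lists called part of this bin too, but on the scaled lengths each less than any embryonic list (log2 difference 2.28 ± 0.33, SE, limma adjusted p = 0.00175, and 0.0538 without scaling). Before scaling ISC replicate 1 covered 96.6 kb of it, more than E14.5 replicate 1, at 94 kb, and less than E12.5 replicate 1, at 106.6 kb. At chr12:78000001-78500000 the ages differed within the embryo, with 38.0 and 51.4 scaled kb at E12.5 and 107.2 and 113.4 scaled kb at E14.5, against 0 to 6.18 scaled kb in the adult lists (log2 difference 2.61 ± 0.38, SE, limma adjusted p = 0.00175).

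Among adult-higher bins, chr9:42500001-43000000 had the largest difference of those with the lowest p. Its scaled cover was 14.3 and 6.58 kb at E12.5, 0 and 3.91 kb at E14.5, 111.1 and 242.8 kb in ISC (271.8 and 149 kb before scaling) and 126.4 and 150.7 kb in AE. The adult mean of 157.7 ± 59.0 kb compared with an embryonic mean of 6.19 ± 6.02 kb (SD, n = 4 each), and the log2 difference was -3.39 ± 0.37 (SE, limma adjusted p = 0.000947). At chr1:183500001-184000000 the embryonic lists were at 0 kb except E12.5 replicate 1, at 10.5 kb, and the adult lists had 86.7 and 58.3 kb in ISC and 121.2 and 74.4 kb in AE. At chr15:64000001-64500000 E12.5 replicate 1 was again the only embryonic list with cover, 11.4 kb, against 65.4 and 75.9 kb in ISC and 105.6 and 74.6 kb in AE. The log2 differences of this pair of bins were -2.95 ± 0.36 and -2.88 ± 0.36 (SE, limma adjusted p = 0.000947 for each).

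Chromosome 5 held the other adult-higher bins of this rank. At chr5:100500001-101000000 the scaled cover of the adult lists was 81.7 and 72.7 kb in ISC and 66.5 and 92.4 kb in AE, while the E12.5 lists had 0 and 13.7 kb and the E14.5 lists 4.02 and 0 kb. At chr5:119500001-120000000 the AE lists, at 159.3 and 147.0 scaled kb, lay above the ISC lists, at 97.6 and 87.7 scaled kb, and both lay above E12.5, at 17.1 and 11.3 kb, and E14.5, at 0 kb in both. The order of AE and ISC there held only after scaling. Before scaling the ISC lists covered 238.8 and 53.8 kb and the AE lists 128.8 and 135.2 kb. The log2 differences were -2.70 ± 0.36 and -3.06 ± 0.40 (SE, limma adjusted p = 0.00109 for each).

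**Figure D3:**
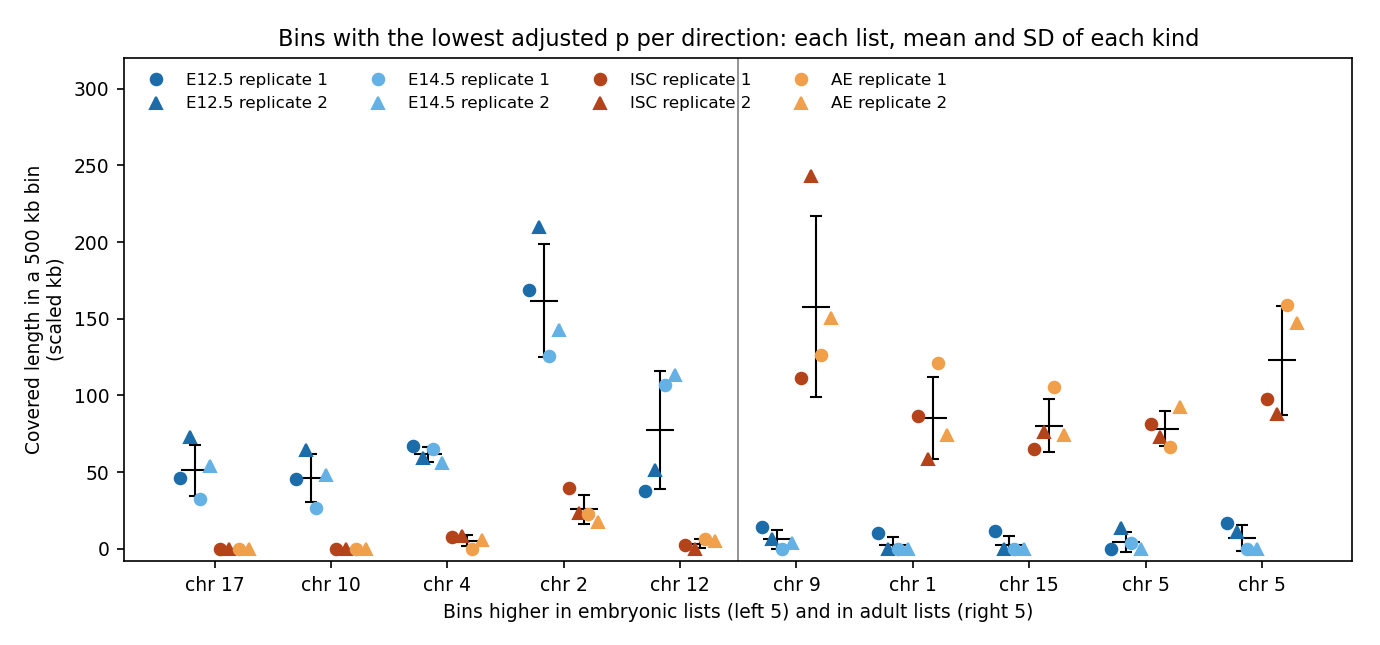
Scaled covered length (y axis, kb) in the 5 embryonic-higher and 5 adult-higher bins of 500 kb with the lowest adjusted p (x axis, by chromosome), 1 point a library, with the mean and SD of each kind (n = 4) in black. In each of the 10 bins all libraries of the higher kind lie above all libraries of the other kind, as at chromosome 9, where the adult lists had 111.1 to 242.8 kb and the embryonic lists 0 to 14.3 kb. The bins were picked by p on these values, so this separation is no added support.

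The share of each list's length on each autosome separated the kinds without overlap on chromosomes 1, 7 and 17. On chromosome 17 the E12.5 lists had 4.67% and 4.84%, the E14.5 lists 4.61% and 5.05%, the ISC lists 3.85% and 3.72%, and the AE lists 3.44% and 3.904%. The means were 4.79% ± 0.197 and 3.73% ± 0.209 (SD, n = 4 each). Chromosome 7 was also higher in the embryo, at 7.61% ± 0.194 against 6.97% ± 0.296, and chromosome 1 lower, at 6.19% ± 0.242 against 7.11% ± 0.329 (SD, n = 4 each). Each of these had an exact permutation p of 0.0286 (two-sided), the smallest that 4 against 4 allows, and an adjusted p of 0.181 over 19 autosomes. The 3 autosomes were 15.8% of those tested, and after adjustment 0 passed. Passing would need many more autosomes at the smallest p, so the adjusted result says little. At equal length the same 3 autosomes reached the smallest p, with means of 4.66% and 3.63% on chromosome 17. In the graded classes chromosome 17 had the highest embryonic share of called length, 4.697%, and the lowest ratio of adult to embryonic class length, 1.17, which was 0.747 at equal length, where chromosomes 12, at 0.72, and 19, at 0.746, were lower. These shares were picked out after their values were seen.

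**Figure D4:**
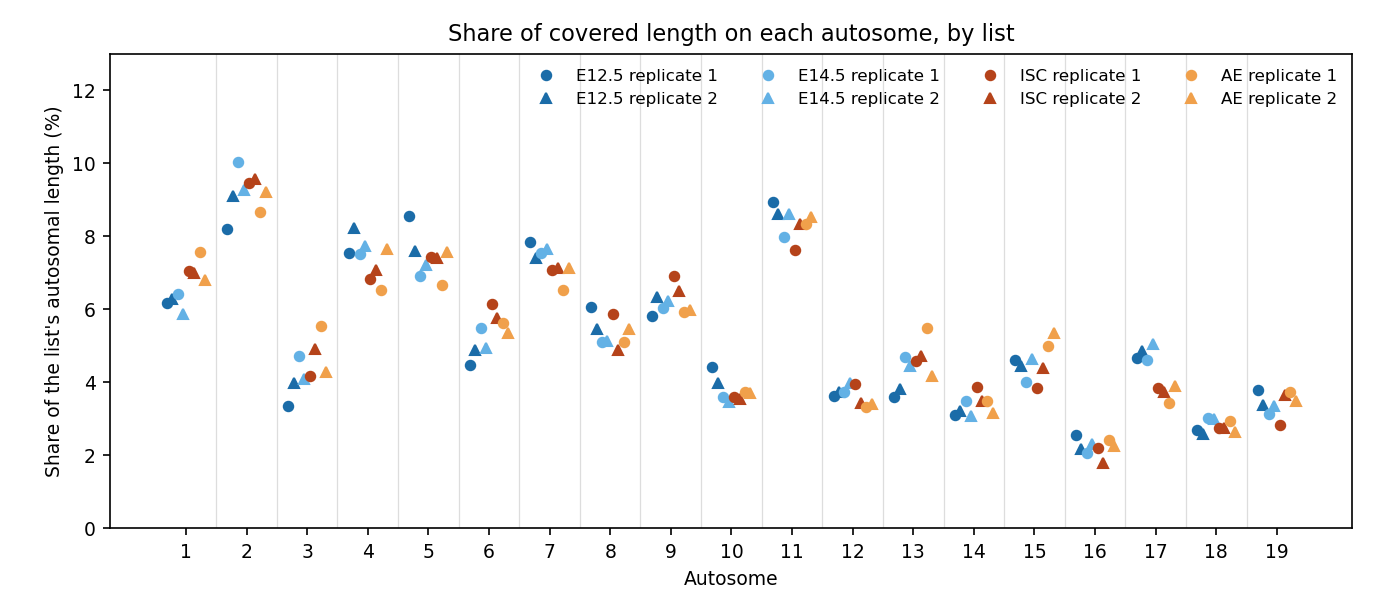
Share of each list's autosomal length (y axis, percent) on each of the 19 autosomes (x axis), 1 point a library. On chromosome 17 the 4 embryonic lists lie at 4.61% to 5.05% and the 4 adult lists at 3.44% to 3.904%, and chromosomes 1 and 7 also show no overlap.

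Within the islands, ChIP over control reads was highest where both kinds called a window, and in 7 of 8 lists it was not lowest where the other kind was absent. Ratios were divided by each list's median over its windows. Over windows in all 4 embryonic lists, the mean relative ratio of the embryonic lists was 1.19 ± 0.152 with no adult list, 1.09 ± 0.0857 with 1, 1.15 ± 0.108 with 2, 1.29 ± 0.183 with 3 and 1.598 ± 0.312 with 4 (SD, n = 4). Over windows in all 4 adult lists, that of the adult lists was 1.101 ± 0.127, 1.09 ± 0.152, 1.14 ± 0.187, 1.16 ± 0.191 and 1.31 ± 0.269 from no to 4 embryonic lists (SD, n = 4). The ratio at 4 other-kind lists exceeded that at 0 in 8 of 8 lists, by 1.09 times in AE replicate 1 to 1.47 times in E14.5 replicate 2. From 0 to 1 other-kind list it fell in 7 of 8 lists, for example from 1.36 to 1.17 in E12.5 replicate 2, and rose from 1.29 to 1.31 in ISC replicate 1. Within an embryonic list the steps were larger in E12.5 replicate 2 and E14.5 replicate 2 than in E12.5 replicate 1, which ran from 1.06 to 1.19. Islands have 1 ratio over their whole length, so windows of a class take the value of islands that can reach beyond it.

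**Figure D5:**
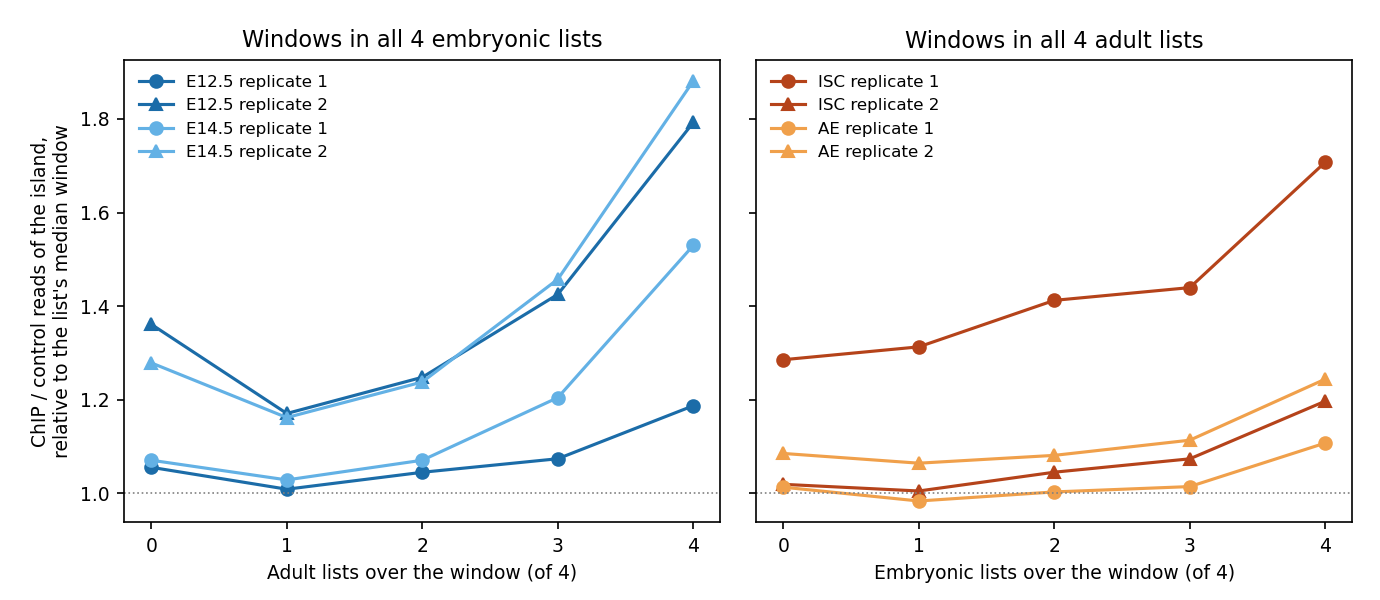
Ratio of ChIP to control reads of the islands over windows in all 4 lists of a kind, relative to the list's median window (y axis, dotted line at 1), by the number of lists of the other kind (x axis, 0 to 4), 1 line a library, embryonic left and adult right. All 8 lines end higher at 4 than they start at 0, and 7 of 8 dip at 1.

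The ratio also rose with the number of own-kind lists in the embryonic lists, and less evenly in the adult lists. With no adult list, the embryonic mean was 0.881 ± 0.0629 in 1 list, 0.934 ± 0.0305 in 2, 1.05 ± 0.0622 in 3 and 1.19 ± 0.152 in 4 (SD, n = 4). With no embryonic list, the adult mean was 0.963 ± 0.0402, 0.955 ± 0.0397, 1.01 ± 0.0724 and 1.101 ± 0.127 (SD, n = 4). From 1 to 4 lists it rose most in ISC replicate 1, from 0.922 to 1.285, and not in AE replicate 1, from 1.014 to 1.013. In ISC replicate 2 and both AE lists it fell from 1 to 2 lists. Counted by islands with at least 50% of their length in a graded class, embryonic-class islands in embryonic lists had a relative ratio of 1.11 ± 0.0827 and adult-class islands in adult lists one of 1.05 ± 0.101, beside 1.35 ± 0.204 and 1.23 ± 0.279 for islands in 3 or 4 lists of both kinds (SD, n = 4). Islands that a list held in the class of the other kind, 28 to 256 a list, had 0.912 ± 0.039 for embryonic lists in the adult class and 1.00 ± 0.0533 for adult lists in the embryonic class (SD, n = 4). They were below the list's own-class islands in 7 of 8 lists, the exception being AE replicate 2, at 1.05 against 1.03. Since calling needs a high ratio, these levels are partly set by the number of lists and were not tested.

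Over whole lists, no summary passed the test with all 8 lists, and after adjustment a single summary at the smallest p could not pass alone. The spread of ratios within a list, the 90th over the 50th percentile, was 1.55 ± 0.222 in embryonic and 1.35 ± 0.0484 in adult lists (SD, n = 4 each, exact permutation p = 0.143, adjusted over 5 values 0.679). Without E12.5 replicate 1, at 1.24, the difference in spread grew from 0.199 to 0.303 and the kinds did not overlap, with embryonic lists at 1.59 to 1.77 and adult lists at 1.28 to 1.39 (exact permutation, adjusted p = 0.143, from the smallest p that 3 against 4 allows, 0.0286). Median island length was 7.2 ± 1.90 kb in embryonic and 7.55 ± 2.09 kb in adult lists (SD, n = 4 each, exact permutation p = 0.857). Covered length was 79.1 ± 18.7 Mb and 117.9 ± 82.9 Mb (SD, n = 4 each, exact permutation p = 0.543), and without ISC replicate 1 the embryonic lists were longer by 2.17 Mb.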

How the data were processed

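The 8 ChIP lists were analysed, and the 4 inputs enter through the control column. The submitters' processing notes name SICER 1.1, Bowtie 1.1.2, SAMtools 1.2 and bcl2fastq 1.8.4, and build mm9. The deposited lists give whole ChIP and control read counts per island, not normalized by the authors, and the total depth of a library is unknown. In 108 of 108 islands with the same borders in both replicates of a population the control counts were equal, so replicates share a control. The lists carry no header, so columns were read from their values. Coordinates are 1-based on mm9.

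With Python 3.11.15 and numpy 2.4.6, islands were painted on autosomal windows of 200 bp and lists of each kind were counted. For equal length, islands were kept by falling ratio of ChIP to control reads. Single values were compared by exact two-sided permutation over 70 assignments, and bins with limma 3.58.1 in R 4.3.3, on bins whose mean scaled cover was at least 10 kb. Tested on simulated data for this comparison over 2237 bins, the fit found 16 of 100 bins changed by 1 and 71 of 100 changed by 2 on the log2 scale. The simulated libraries were independent, without nested populations or a shared control, so the fit was not tested under those. Alternatives were other pseudocounts, filters, bin sizes and scalings, a mean for each population, a replicate block, changed island sets and each library left out. Those without E12.5 replicate 1 and ISC replicate 1 together, and those leaving out a library at equal length, were added after seeing the data.

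Regions named are, per direction, the 8 longest domains, the 5 bins with the lowest adjusted p and the domain with the highest relative ratio. Genes and sequences were not used here, since the tables at hand are of another mouse build. The members, rules and settings were chosen with earlier results of these data known.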

Additional observations from a re-analysis of the deposited data

Results flagged for a closer look

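In 6 of 70 groups of 4 values looked at, a library lay far from the other 3 of its kind. The cut-off gives about 1 in 20 by chance for independent, normally distributed values. These groups share libraries and include bins picked by their p, so that rate does not apply here. ISC replicate 1 lay apart from the adult lists in covered length, 240.9 Mb, and in the share of its length in no other list, 42.8%. AE replicate 1 lay below the other adult lists in its share of length on chromosome 5, 6.66%, and chromosome 7, 6.52%. E12.5 replicate 1 was the only embryonic list with cover in the adult-higher bins chr1_bin_368, the chromosome 1 bin described above, with 10.5 scaled kb, and chr15_bin_129, the chromosome 15 bin, with 11.4 scaled kb. With the other embryonic lists at 0 kb, any cover would have met the cut-off in these bins.

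Chromosome X lies outside the autosomal comparison. Its covered length was 0.2702 and 1.06 Mb at E12.5, 2.24 and 3.16 Mb at E14.5, 0.325 and 0.183 Mb in ISC and 0.228 and 0.246 Mb in AE. The embryonic mean was 1.68 ± 1.27 Mb and the adult mean 0.246 ± 0.0593 Mb (SD, n = 4 each, exact permutation p = 0.0571), with E12.5 replicate 1 inside the adult range. As a share of covered length the means were 1.92% ± 1.22 and 0.248% ± 0.0765 (SD, n = 4 each, exact permutation p = 0.0286, the smallest that 4 against 4 allows), and the lists did not overlap. Adults were males and the labels as used here give no sex for the embryos, so sex and kind cannot be told apart. On chromosome Y every list but ISC replicate 1 held islands, between 0.102 and 0.129 Mb.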

How the results depend on the processing

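Of 305 recomputed values, 221 were counted as unchanged, 71 as moved and 13 as changed in sign. Among the 221, the summaries of whole lists kept their direction but not always their size. Median island length, for example, differed by -0.35 kb as deposited and by -1.07 kb without AE replicate 2. Which kind held more class length depended on the lists. As log2 of embryonic over adult length, the strict difference was -1.67 as deposited, -0.53 at equal length and -0.91 on the islands of each list at or above its median ratio, and the graded difference was -0.97, -0.048 and 0.012. The adult lengths were then 2.896 and 1.796 Mb strict, and 11.67 and 8.72 Mb graded, in the last 2 settings. On the islands above the median, 5.97 Mb lay in all 8 lists and 12.6 Mb in 3 or 4 lists of both kinds. Leaving out 1 library, as deposited and at equal length, or E12.5 replicate 1 and ISC replicate 1 together, gave strict lengths of 1.48 to 8.56 Mb embryonic and 3.11 to 11.2 Mb adult (log2 -2.88 to 0.89), and graded lengths of 12.8 to 37.3 Mb and 12.2 to 56.7 Mb (log2 -2.07 to 0.85). With 1 library left out the rule is looser on the reduced side, so these ranges and signs are partly set by the rule. At equal length the graded log2 was 0.14 to 0.85 with an embryonic library left out. With an adult library left out it was -0.71 to -0.51. Length in all lists stayed at 8.72 to 15.3 Mb. Embryonic minus adult covered length ran from -58.0 to 2.17 Mb, number of islands from -3447 to 130.9 and median island length from -1.07 to 0.60 kb, all without a call. Leaving out islands with dense control, leaving out islands under 2 kb and widening islands by 1 kb moved neither class beyond 1.5 times.

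Of 2237 bins tested, 69 were higher in the embryo and 92 in the adult with a pseudocount of 2 kb. With 50 kb these were 130 and 155. Without scaling they were 11 and 80 of 2232. In 1000 kb bins they were 69 and 96 of 1526, and in 200 kb bins 200 and 290 of 2914. With libraries left out they were 50 to 203 and 86 to 210, of 1958 to 2291 tested. A fit on all 8 libraries with a mean for each population called 178 and 225 of 2237. Its error is the spread between replicates alone, so libraries and not populations are its units. The cause of these changes was not tested. The replicate numbers do not pair the samples: deviations of same-numbered libraries correlated at -0.25 to 0.21 over the 6 pairs of populations. With a replicate block 96 and 119 bins were called, and 0 autosomes passed unadjusted, since its 36 assignments allow no p below 0.0556. For adult-class islands in embryonic lists the relative ratio was 0.988 when any overlap sufficed. Total depth per library is unknown, so the part of depth in the extent of a list was not tested.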
